A study of Mus musculus with 23 samples.

Results

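Lungs of wild-type (WT) male mice on a C57BL/6 background were compared at 18 and 10 months of age, with 3 libraries per age. These 6 libraries are all the adult WT libraries among the 23 lung libraries of the series, and they were taken by their labels, with every gene of the count table included. The series also holds Rarres1 knockout (KO) lungs of the same background at the same ages, lung tumours of the KO mice, and lungs of both genotypes late in gestation. Per the labels, the WT mice were untreated, lived in a pathogen-free barrier facility and gave non-tumour lung, from which total RNA was taken. The labels number the lungs as separate samples and say no more about them, so a p-value here reflects only how far these samples vary, which may in part be technical. No time of day, sequencing batch or body weight is given, and age is the only labelled difference between the groups.

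The lung is a tree of airways that ends in alveoli, where flat type 1 cells exchange gas and type 2 cells make surfactant. Ageing of the lung is known for a slow gathering of lymphocytes, for changes in collagen and elastin, for weaker induction of chaperones, and for cells that stop dividing and secrete inflammatory factors. Bulk RNA mixes all these cells, so fewer cells of a type and less RNA per cell cannot be told apart here.

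The libraries held 27.3 to 30.2 M counts (M for 1e6), with 17468 to 17611 genes detected and 8.95% to 10.5% of counts in the 10 most abundant genes. Tissue markers and Y-linked reads went with the labels, while Xist stood apart in 1 lung. Sftpc, a surfactant protein of type 2 cells, stood at 11428, 13101 and 9871 counts per M counts (CPM, scaled by TMM) at 10 months and at 12480, 11592 and 11812 CPM at 18 months. Scgb1a1, the secretoglobin of airway club cells, stood between 39498 and 56660 CPM, and Ager, a type 1 cell receptor, between 2292 and 2563 CPM. The Y-linked gene Ddx3y had 1167 to 2270 reads in every lung. Xist, the RNA that silences an X chromosome in females, had 5 to 17 reads in 5 lungs and 163 in lung 3 at 10 months. The source of the Xist reads in that lung was not tested.

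Single lungs stood apart at both ages. Pairs of lungs correlated across genes at r of 0.981 to 0.988 at 10 months and 0.989 to 0.994 at 18 months, where lungs 2 and 3 were the closest pair and lung 1 lay further off. Heart muscle genes, as the mean of log2(CPM + 1) over 13 genes, lay at 6.22, 2.24 and 4.88 at 10 months and at 4.28, 4.47 and 4.34 at 18 months. The summed level of those heart genes ran from 97.9 to 1600 CPM at 10 months and from 466 to 595 CPM at 18 months. Myh6, the heart's alpha myosin, had 12364, 330 and 5733 reads at 10 months and 4259, 4706 and 3786 reads at 18 months. Adipocyte genes were high in lung 1 of 10 months alone, where their mean level was 5.08 against 3.28 to 3.60 in the other 5 lungs. Lung 1 of 10 months had 14 genes at least 4-fold above all 5 other lungs, among them the airway proteins Bpifa1 and Bpifb1 and the fat hormone Adipoq. Lung 2 of 10 months had 29 genes at least 4-fold below all others, led by heart genes, and lung 3 of 10 months had 3 genes that far above. Of the lungs at 18 months, lung 1 had 4 genes that far above the rest and 2 below, lung 2 had 0 and lung 3 had 2 below. Beyond leaving out each lung in turn, the part of these genes in the results that follow was not tested.

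**Figure D1:**
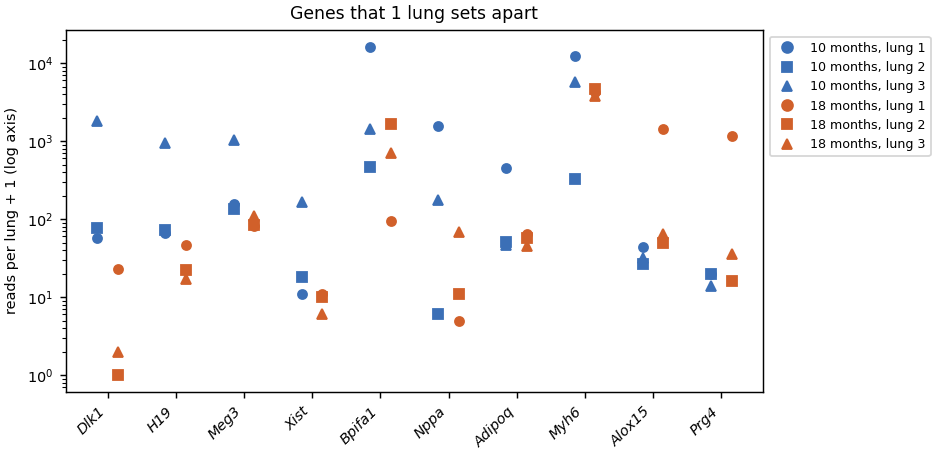
Reads + 1 per lung (log axis) of 10 genes that 1 lung sets apart, in the 3 lungs of 10 months (blue) and the 3 lungs of 18 months (orange), with a symbol for each lung. Bpifa1, Nppa and Adipoq are highest in lung 1 of 10 months, Dlk1, H19, Meg3 and Xist in lung 3 of 10 months, and Alox15 and Prg4 in lung 1 of 18 months, while Myh6 is lowest in lung 2 of 10 months.

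Between 10 and 18 months no gene of WT lung passed the test, and the differences seen were small. Of 15321 genes tested with edgeR's quasi-likelihood test, 0 were called at a Benjamini-Hochberg adjusted p under 0.05 (0%), and the smallest adjusted p was 0.512. An unadjusted p under 0.05 was reached by 833 genes (5.44%), where a share of 5% would give 766. Of these, 448 were higher at 18 months (2.92% of the genes tested) and 385 were lower (2.51%). DESeq2 called 21 genes, 13 higher (0.0815%) and 8 lower (0.0502%), and gave 735 genes an unadjusted p under 0.05. limma on log2(FPKM + 1), with FPKM for fragments per kilobase of gene and M fragments, called 0 genes with 803 at an unadjusted p under 0.05, and on log2(FPKM + 0.1) 0 genes with 807.

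Typical differences between the ages were no larger than their error. Among 13534 genes with a mean of at least 2 CPM at either age, the median size of the log2 fold change was 0.07 and its median standard error (SE) 0.09. Only 49 of them differed by 2-fold or more, 19 higher and 30 lower at 18 months, and in 19 of these 49 the age groups did not overlap. Over all genes tested, the 3 lungs of 18 months lay wholly above or wholly below those of 10 months in 1630 genes (10.6%), 841 above (5.49%) and 789 below (5.15%).

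**Figure D2:**
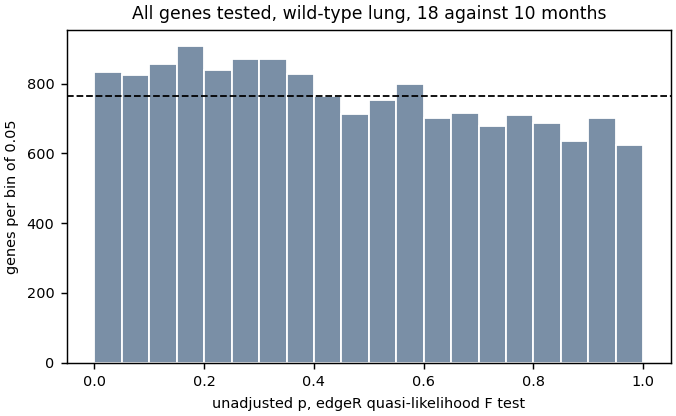
Unadjusted p-values of the 15321 genes tested for 18 against 10 months, as the number of genes per bin of 0.05, with a dashed line where an even spread would put each bin. The lowest bin holds 833 genes, close to the line at 766, and no excess of small p-values stands above the bins beside it.

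The genes with the smallest p in each direction, given as values and not as changes, were led on the higher side by Zfp97, a zinc finger protein of chromosome 17 (GRCm38 17121108 to 17147138). Zfp97 stood at 3.71, 4.43 and 4.39 CPM at 10 months and at 7.33, 8.46 and 7.45 CPM at 18 months. Every older lung was above every younger one, with a log2 fold change of 0.89 ± 0.13 (SE, n = 3 per age, edgeR adjusted p = 0.512, DESeq2 0.00205). Zfp97 belongs to a large family of similar zinc finger genes, and reads shared with its relatives make its level uncertain. Nrn1, neuritin, a membrane-anchored protein first known from growing nerve cells, lies on chromosome 13 (36725622 to 36734477). It stood at 34.7, 22.7 and 25.8 CPM at 10 months and at 56.8, 46.2 and 49.3 CPM at 18 months. The groups were clear of each other and the log2 fold change was 0.87 ± 0.16 (edgeR adjusted p = 0.808, DESeq2 3.69e-05). Without lung 1 of 10 months Nrn1 was called by edgeR (adjusted p = 0.0233, log2 fold change 1.07).

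Phlda3, a p53 target that restrains the kinase Akt, stood at 67.2, 64.3 and 58.5 CPM at 10 months and at 81.3, 79.7 and 87.2 CPM at 18 months (chromosome 1, 135766085 to 135769134). All 3 older lungs lay above the younger ones, by a log2 fold change of 0.39 ± 0.07 (edgeR adjusted p = 0.808, DESeq2 0.00647). Snhg11, a noncoding RNA that hosts a small nucleolar RNA, was at 26.1, 22.9 and 25.1 CPM and then at 32.3, 35.0 and 35.0 CPM, a log2 fold change of 0.47 ± 0.08 (edgeR adjusted p = 0.512, DESeq2 0.00346). The other 8 genes on this side had log2 fold changes between 0.29 and 0.90 and edgeR adjusted p-values of 0.808. They were the fatty acyl-CoA synthetase Acsbg1 (0.90), the proline transporter Slc6a20a (0.58), the lysophospholipid transporter Mfsd2a (0.53), the interleukin 3 receptor chain Il3ra (0.48), the X-linked Bex2 (0.46), the dynein light chain Dynlt1b (0.42), the ribosomal protein Rps28 (0.34) and the transcription regulator Prdm16 (0.29). DESeq2 called Dynlt1b (adjusted p = 0.0476) and Rps28 (0.0497) among these 8. Dynlt1b has near-identical neighbouring copies and Rps28 has processed copies in the genome, so the counts of both are uncertain.

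The lower side was led by Cnn1, calponin 1, an actin-binding protein of smooth muscle, on chromosome 9 (22099221 to 22109221). Cnn1 stood at 59.7, 45.4 and 62.6 CPM at 10 months and at 33.4, 34.0 and 34.6 CPM at 18 months. The older lungs were nearly alike and all below the younger ones, with a log2 fold change of -0.72 ± 0.11 (edgeR adjusted p = 0.512, DESeq2 3.69e-05). Leaving out lung 2 of 10 months brought Cnn1 past the edgeR threshold (adjusted p = 0.0157, log2 fold change -0.85). Igf1, insulin-like growth factor 1, a growth factor of mesenchymal cells and macrophages, stood between 11.4 and 14.3 CPM at 10 months and at 7.91, 8.93 and 8.75 CPM at 18 months. The ages did not overlap and the log2 fold change was -0.56 ± 0.12 (edgeR adjusted p = 0.808). Htr2b, a serotonin receptor, had the largest difference of the 12, from 2.73, 3.10 and 3.61 CPM to 1.45, 1.70 and 2.07 CPM, a log2 fold change of -0.85 ± 0.20 (edgeR adjusted p = 0.84).

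Cpt1a, which admits fatty acids to mitochondria for burning, stood at 184, 195 and 178 CPM at 10 months and at 156, 146 and 125 CPM at 18 months, a log2 fold change of -0.38 ± 0.09 (edgeR adjusted p = 0.808, DESeq2 0.0408). Cd38, an enzyme that breaks down NAD, stood at 45.7, 50.8 and 51.6 CPM and then at 39.2, 36.8 and 41.1 CPM, a log2 fold change of -0.34 ± 0.07 (edgeR adjusted p = 0.808). In both genes every older lung was below every younger one. The remaining 7 genes of this side had log2 fold changes from -0.52 to -0.35. They were the cytokinesis protein Anln (-0.52), the chaperones Hsp90aa1 (-0.50) and Hspa4l (-0.41), the transcription cofactor Dach1 (-0.42), the smooth muscle protein Synpo2 (-0.40), the zinc finger gene Zfp760 (-0.38) and Dtx4 (-0.35), a ubiquitin ligase of the Notch pathway. DESeq2 called Hsp90aa1 (adjusted p = 0.00485) and Hspa4l (0.0355) among these 7.

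**Figure D3:**
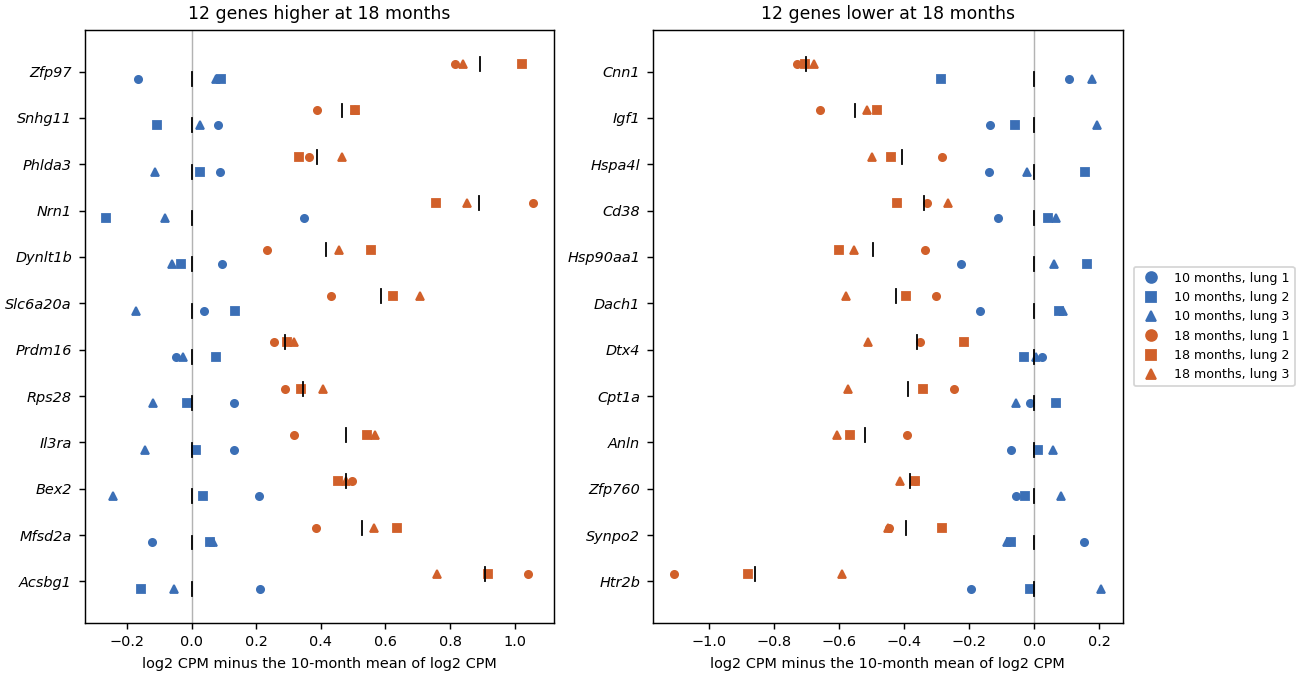
log2 CPM of each lung minus the 10-month mean of log2 CPM for the 12 genes named on each side, in lungs of 10 months (blue) and 18 months (orange), with a symbol for each lung and a black line at each group's mean. The groups do not overlap in any of the 24 genes because the choice of genes required it, and Zfp97, Nrn1, Acsbg1 and Htr2b have the widest separation.

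Smooth muscle genes were lower in the older lungs as a list, with Cnn1 at the head. All 10 genes tested had a log2 fold change below 0, with a median of -0.28 against 0.00 over all genes, and 6 of 10 had an unadjusted p under 0.05 on the lower side (2.51% over all genes). The list's mean level of log2(CPM + 1) was 6.14, 5.84 and 6.15 at 10 months and 5.75, 5.68 and 5.76 at 18 months, so the ages did not overlap. Actg2, the gamma actin of smooth muscle, stood at 24.4, 18.3 and 30.0 CPM and then at 13.0, 14.7 and 17.1 CPM. Its log2 fold change was -0.70 ± 0.18 without overlap between the ages (edgeR adjusted p = 0.851, DESeq2 0.0497). Tagln, transgelin, an actin-binding protein, stood at 187, 151 and 190 CPM and then at 149, 143 and 144 CPM, a log2 fold change of -0.28 ± 0.09 (edgeR adjusted p = 0.891). Synpo2, which crosslinks actin, stood at 27.4, 23.4 and 23.2 CPM and then at 18.0, 20.2 and 18.0 CPM. Lung 2 of 10 months, which had the least heart muscle RNA, was the lowest of the younger lungs in Cnn1, Actg2 and Tagln. Without it the list's median was -0.35, and leaving out any other lung gave between -0.32 and -0.22. Heart muscle genes also had a median below 0 (-0.70, with 0 of 13 genes above 0). Without lung 1 of 10 months the heart muscle median was 0.40 and the smooth muscle median -0.22. The part of heart tissue in the smooth muscle values was not tested.

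Genes for fibrillar collagens and the enzymes that fold and crosslink them were lower by smaller amounts. Of 20 genes tested, 15 were below 0, the median log2 fold change was -0.17, and 8 had an unadjusted p under 0.05, all lower (2.51% over all genes). The list's level was 6.73, 6.84 and 6.87 at 10 months and 6.70, 6.64 and 6.70 at 18 months, apart by a narrow margin. Col1a2, a chain of type I collagen, stood at 299, 263 and 287 CPM and then at 228, 238 and 242 CPM. Col3a1, the type III chain, stood at 342, 389 and 381 CPM and then at 257, 303 and 327 CPM. For both, every older lung was lower, and the log2 fold changes were -0.26 ± 0.07 and -0.33 ± 0.09 (edgeR adjusted p = 0.84 and 0.851). P4ha1, the prolyl hydroxylase that makes collagen helices stable, stood at 105, 124 and 119 CPM and then at 104, 83.9 and 81.0 CPM. Its groups were apart by a small gap, with lung 1 of 18 months beside lung 1 of 10 months, and its log2 fold change was -0.38 ± 0.10 (edgeR adjusted p = 0.846). Col5a2, of type V collagen, was at -0.35 ± 0.12 and overlapped (edgeR adjusted p = 0.891).

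Elastic fibre and fibroblast genes were less uniform. Eln, elastin, stood at 215, 226 and 403 CPM at 10 months and at 186, 161 and 184 CPM at 18 months. Its log2 fold change of -0.67 ± 0.28 (edgeR adjusted p = 0.891) was -0.32 without lung 3 of 10 months, and the other two younger lungs lay only a little above the older ones. That lung also had the most Dlk1, H19 and Meg3, as the plot of genes set apart by 1 lung shows. Among 15 elastic fibre genes the median was -0.05, with Fbln1, a matrix protein, at -0.24 ± 0.08 and Efemp2, needed to assemble elastin, at 0.18 ± 0.07, and neither overlapped (edgeR adjusted p = 0.891 for each). Of 14 fibroblast genes 11 were below 0 with a median of -0.17, and 3 had an unadjusted p under 0.05 on the lower side (2.51% over all genes). Dcn, decorin, a proteoglycan on collagen fibrils, stood at 254, 250 and 233 CPM and then at 202, 228 and 215 CPM (log2 fold change -0.19 ± 0.07, edgeR adjusted p = 0.891). Fgf10, the fibroblast signal to alveolar epithelium, was at -0.25 ± 0.10 without overlap (edgeR adjusted p = 0.891). Pi16, of adventitial fibroblasts, stood at 37.0, 20.93 and 26.4 CPM and then at 15.2, 20.83 and 20.3 CPM. Lung 2 of 10 months was thus level with the older lungs, and the log2 fold change of Pi16 was -0.58 ± 0.23 (edgeR adjusted p = 0.891). Fgf10 was at -0.15 without lung 3 of 10 months, and Pi16 at -0.34 without lung 1 of 10 months.

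Heat shock chaperones formed the other lower group, and 1 older lung held back. These proteins refold damaged proteins, and heat shock factor 1 drives many of their genes through a repeat of GAA and its reverse complement in the promoter. Of 11 genes tested 10 were below 0, the median log2 fold change was -0.29, and 6 had an unadjusted p under 0.05 on the lower side (2.51% over all genes). The list's level was 7.32, 7.28 and 7.21 at 10 months and 7.24, 6.59 and 6.84 at 18 months. Lung 1 of 18 months thus lay among the younger lungs, and without it the median was -0.55. Hsp90aa1, the inducible cytosolic Hsp90, stood at 670, 876 and 818 CPM and then at 621, 516 and 533 CPM. Its log2 fold change was -0.50 ± 0.11 with no overlap between the ages (edgeR adjusted p = 0.808, DESeq2 0.00485).

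Hsph1, a co-chaperone that helps Hsp70 release its client, stood at 98.0, 117 and 94.5 CPM at 10 months and at 79.9, 54.4 and 66.2 CPM at 18 months, a log2 fold change of -0.63 ± 0.15 (edgeR adjusted p = 0.84, DESeq2 0.0048). Hspd1, the mitochondrial chaperonin, stood at 139, 142 and 159 CPM and then at 129, 113 and 117 CPM, a log2 fold change of -0.29 ± 0.08 (edgeR adjusted p = 0.84). Hsp90ab1, the constitutive Hsp90, was at -0.41 ± 0.12 (edgeR adjusted p = 0.851). All 3 were lower in every older lung, and lung 1 was the highest older lung each time. The stress-induced Hsp70 genes Hspa1a and Hspa1b, named here after their values were seen, overlapped between the ages at -0.20 ± 0.47 and -0.42 ± 0.55 (edgeR adjusted p = 0.95 and 0.918). Their copies are near-identical, so the split of reads between them is uncertain.

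Hspb1, a small heat shock protein that binds actin, had the largest difference of the list and was singled out after its values were seen. It stood at 190, 308 and 226 CPM at 10 months and at 165, 108 and 101 CPM at 18 months. The ages did not overlap, with a log2 fold change of -0.95 ± 0.28 (edgeR adjusted p = 0.891). Its promoter is shown because it holds 2 copies of the heat shock element GAANNTTC, in capitals, at 117 and 97 bases before the start site. The 250 bases before the start are from RefSeq on GRCm38.p6, plus strand, chr5:135887669-135887918.
Hspb1: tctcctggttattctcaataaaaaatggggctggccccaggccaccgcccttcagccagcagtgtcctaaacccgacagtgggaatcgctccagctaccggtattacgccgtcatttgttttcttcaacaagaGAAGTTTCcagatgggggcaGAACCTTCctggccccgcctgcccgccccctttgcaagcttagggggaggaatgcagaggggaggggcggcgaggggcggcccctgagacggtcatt
The motif equals its own reverse complement, so a search of 1 strand covers both. In windows of 250 bases before to 50 after a start, 8 of the 13 windows of list members held it, against 7.86% of all 32851 windows (2582). These 13 windows belong to 8 of the 11 genes of the list, of which 7 had a match, and they are not independent. The facing promoters of Hspd1 and Hspe1 share 1 match. So do the overlapping windows of Hsph1, where the match lies after the start. The windows of Hspa1a and Hspa1b hold the same letters at the match, 104 bases before the start. A match is a description of the letters and shows no binding.

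**Figure D4:**
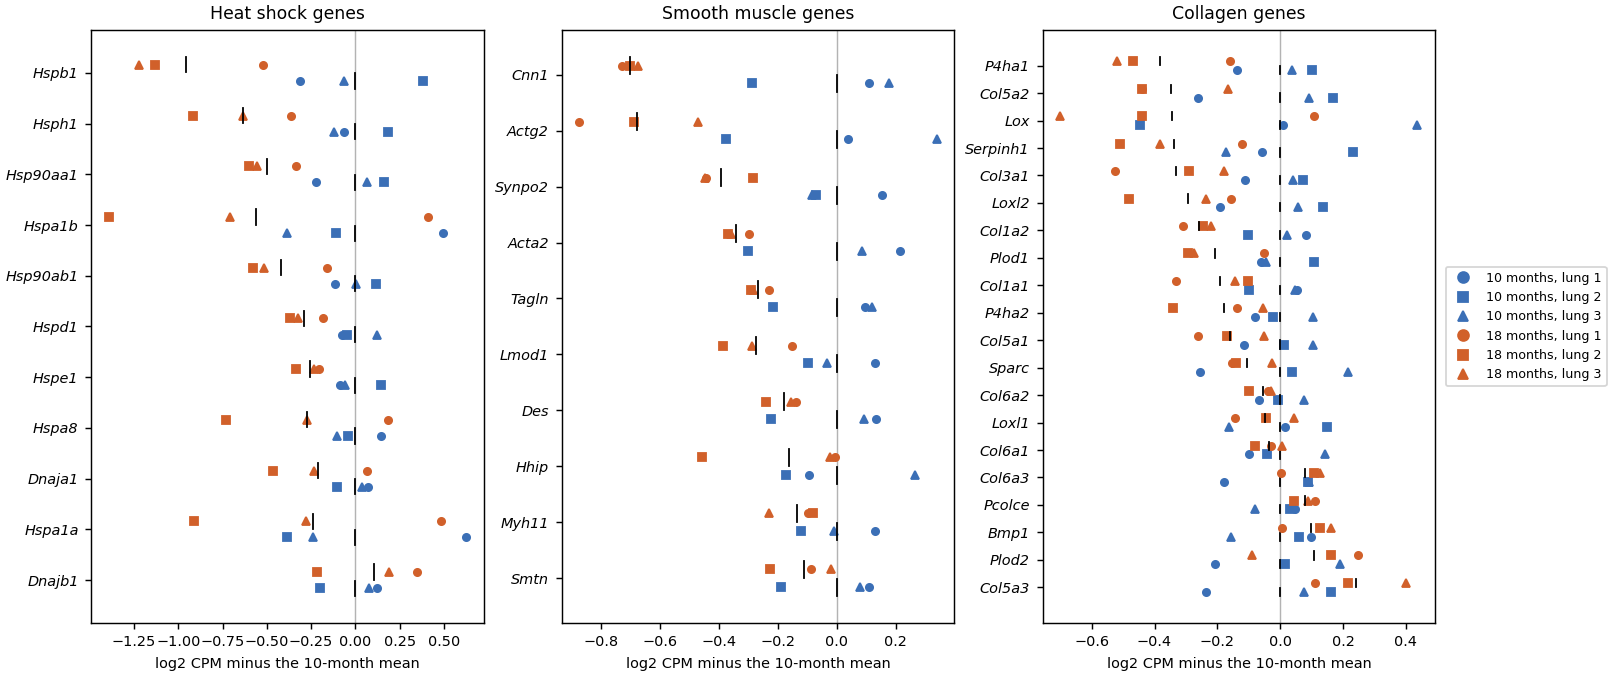
log2 CPM of each lung minus the 10-month mean for every gene tested of the heat shock (11 genes), smooth muscle (10) and collagen (20) lists, in lungs of 10 months (blue) and 18 months (orange), with a symbol for each lung and a black line at each group's mean. Most orange symbols lie to the left of 0, and in the heat shock panel lung 1 of 18 months (orange circle) lies nearest to the younger lungs for most genes.

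Most genes of T cells, B cells and lymphoid tissue had a log2 fold change above 0, and none passed the test. B cell genes had 12 of 14 above 0 with a median of 0.17, 0 at an unadjusted p under 0.05 and overlapping levels, and without lung 2 of 18 months their median was -0.06. The T cell costimulation and exhaustion list had all 10 genes above 0 with a median log2 fold change of 0.25, and 2 of 10 had an unadjusted p under 0.05 on the higher side (2.92% over all genes). Its level was 1.84, 1.78 and 1.69 at 10 months and 1.91, 2.04 and 2.02 at 18 months, without overlap. Tigit, an inhibitory receptor of T and NK cells, stood at 0.304, 0.433 and 0.179 CPM and then at 0.864, 0.904 and 0.598 CPM. The ages were apart, at a log2 fold change of 1.35 ± 0.38 from few reads (edgeR adjusted p = 0.851). Il2rb, a chain of the interleukin 2 receptor, stood at 12.9, 9.80 and 11.9 CPM and then at 11.8, 19.5 and 16.7 CPM, a log2 fold change of 0.47 ± 0.19 with overlap (edgeR adjusted p = 0.891).

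The wider list of T and NK cell genes had 12 of 16 genes above 0 and a median of 0.30. Its level was 2.51 in lung 1 of 18 months, below all 3 younger lungs at 2.80, 2.68 and 2.60, and was 3.15 and 3.03 in the other 2 older lungs. Ccl5, a chemokine made by activated T and NK cells, followed that split, at 15.4, 15.5 and 11.2 CPM and then at 13.7, 29.5 and 29.5 CPM. Its log2 fold change was 0.79 ± 0.34 (edgeR adjusted p = 0.891), and without lung 1 of 18 months it was 1.07 with an adjusted p of 0.0429. Cd3d, a chain of the T cell receptor complex, was at 0.46 ± 0.19, and Nkg7, a protein of cytotoxic granules, at 0.52 ± 0.24, both with overlap (edgeR adjusted p = 0.891 for each).

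Among lymphoid tissue chemokines and their receptors 7 of 8 genes were above 0 with a median of 0.31 (0.09 without lung 2 of 18 months). Cxcr5, the receptor that leads B cells into follicles, stood at 11.4, 10.9 and 8.64 CPM and then at 12.9, 16.1 and 14.7 CPM. It did not overlap, with a log2 fold change of 0.49 ± 0.13 (edgeR adjusted p = 0.84). Lta, lymphotoxin alpha, was at 0.82 ± 0.35 on about 1 CPM or less (edgeR adjusted p = 0.891). Genes used as marks of age-associated B cells had 6 of 7 above 0, a median of 0.49 and levels of 3.44, 3.43 and 3.30 and then 3.70, 3.61 and 3.61, apart, although many of these genes are shared with T cells and macrophages. Of the 7, 1 gene, Cxcr3, had an unadjusted p under 0.05 on the higher side (2.92% over all genes). Zeb2, the gene below 0, had one on the lower side (2.51%), and both were named after their values were seen. Without single lungs that median ran from 0.29 to 0.53. MHC class II genes, which present antigen to helper T cells, had 10 of 10 above 0 with a median of 0.17, no member at an unadjusted p under 0.05 and overlapping levels. Leaving out lung 3 of 10 months took their median to 0.00. Of 20 plasma cell and immunoglobulin genes listed, 10 were tested, with a median of -0.03. Jchain, which joins secreted antibody chains, stood at 157, 133 and 123 CPM and then at 91.6, 144 and 52.5 CPM, a log2 fold change of -0.52 ± 0.40 with overlap (edgeR adjusted p = 0.891).

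Interferon response genes stood evenly about 0, with 12 of 24 above 0 and a median of 0.00. The antiviral gene Ifi44 was lower in every older lung, at 7.86, 12.6 and 10.0 CPM and then at 6.91, 6.94 and 7.49 CPM (log2 fold change -0.51 ± 0.16, edgeR adjusted p = 0.891). The antiviral synthetase Oas1a was at 0.42 ± 0.15 with overlap (edgeR adjusted p = 0.891). These are opposite directions within 1 list.

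Cell cycle inhibitors and p53 targets included Phlda3 and Eda2r among those higher at 18 months. Eda2r, a receptor for an ectodysplasin, stood at 2.70, 3.37 and 2.96 CPM and then at 4.60, 4.30 and 4.39 CPM. The groups were apart and the log2 fold change was 0.56 ± 0.15 (edgeR adjusted p = 0.84). The list had 11 of 14 genes above 0, a small median of 0.07, and 2 genes at an unadjusted p under 0.05 on the higher side (2.92% over all genes) with 1 on the lower side (2.51%), Cdkn1b, an inhibitor of cyclin-dependent kinases (-0.19 ± 0.07, edgeR adjusted p = 0.891). The senescence marker Cdkn2a, named after its values were seen, stood at 0.607, 1.33 and 0.393 CPM and then at 0.864, 0.362 and 1.20 CPM and overlapped. Its log2 fold change of 0.05 ± 0.53 leaves a wide range on either side of 0 (edgeR adjusted p = 0.988).

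Inflammatory and secreted senescence factors stood on both sides of 0, with 5 of 15 genes above 0 and a median of -0.10. Gdf15, a stress-induced cytokine, stood at 1.75, 1.37 and 1.54 CPM and then at 2.97, 2.93 and 2.11 CPM. It was higher in each older lung, with a log2 fold change of 0.78 ± 0.21 (edgeR adjusted p = 0.84). Mmp3, a protease that cuts matrix, was lower, at 22.8, 38.5 and 38.7 CPM and then at 22.7, 21.8 and 19.9 CPM. Lung 1 of 10 months was level with the older lungs. Over all lungs its log2 fold change was -0.63 ± 0.21 (edgeR adjusted p = 0.891), and without that lung it was -0.85 (adjusted p = 0.0233). Il1a, an alarm cytokine, was at -0.41 ± 0.15 without overlap (edgeR adjusted p = 0.891).

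Cholesterol synthesis genes, which SREBP2 controls together, were all on the higher side. The 20 genes tested lay between 0.02 and 0.28 with a median log2 fold change of 0.18, and 7 of 20 had an unadjusted p under 0.05 (2.92% over all genes on the higher side). The list's level was 5.28, 5.21 and 5.22 at 10 months and 5.26, 5.44 and 5.47 at 18 months, so lung 1 of 18 months lay with the younger lungs. Mvd, an enzyme of the mevalonate steps, stood at 13.7, 12.9 and 13.2 CPM and then at 14.5, 15.3 and 18.6 CPM. It was higher in each older lung, with a log2 fold change of 0.28 ± 0.11 (edgeR adjusted p = 0.891). Cyp51, the lanosterol demethylase, stood at 36.0, 37.9 and 37.8 CPM and then at 37.7, 44.7 and 47.5 CPM. It overlapped through lung 1 of 18 months, at a log2 fold change of 0.22 ± 0.09 (edgeR adjusted p = 0.891).

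Ribosomal protein genes stood slightly higher at 18 months. All 20 genes listed were above 0 with a median log2 fold change of 0.12, 2 had an unadjusted p under 0.05 (2.92% over all genes on the higher side), and 9 did not overlap between the ages (5.49%). The list's level overlapped, at 8.59, 8.45 and 8.46 and then at 8.53, 8.58 and 8.75. Rpl32, of the large subunit, stood at 280, 274 and 254 CPM and then at 305, 314 and 314 CPM, a log2 fold change of 0.21 ± 0.06 (edgeR adjusted p = 0.866). Rps18, of the small subunit, stood at 342, 308 and 267 CPM and then at 345, 359 and 365 CPM, a log2 fold change of 0.22 ± 0.09 (edgeR adjusted p = 0.891). Many ribosomal protein genes have processed copies, and how reads were shared with these affects their levels. The median kept its sign in every fit that left out 1 lung, from 0.08 to 0.15.

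Clock genes had 11 of 17 members above 0 and a median of 0.14, and the time of day of sampling is not in the labels. Dbp, a clock output factor whose level swings over the day, stood at 13.76, 15.99 and 14.22 CPM and then at 19.3, 19.5 and 29.1 CPM. It was higher in each older lung, with a log2 fold change of 0.63 ± 0.16 (edgeR adjusted p = 0.84) that was 0.40 without lung 3 of 18 months. Per3, a clock repressor, was at 0.23 ± 0.08, and Bhlhe41, another repressor, at 0.36 ± 0.11, neither with overlap (edgeR adjusted p = 0.891 for each). A difference in sampling time and a difference with age cannot be told apart from these libraries.

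Mitosis genes were slightly lower, with 23 of 24 below 0 and a median of -0.22. Birc5, survivin, which acts at the dividing chromosomes, stood at 2.60, 2.43 and 1.71 CPM and then at 1.55, 1.59 and 1.48 CPM. The ages were apart at a log2 fold change of -0.55 ± 0.22 (edgeR adjusted p = 0.891). The list's level of 2.34, 2.27 and 2.10 against 2.23, 2.11 and 1.84 overlapped, and without lung 3 of 18 months the median was -0.08. Cdk1, the kinase that starts mitosis, was at -0.42 ± 0.21 and overlapped (edgeR adjusted p = 0.891).

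The cells that line alveoli and vessels showed little difference. Over 14 type 2 cell genes the median log2 fold change was 0.03, over 12 type 1 cell genes -0.02 and over 16 endothelial genes -0.03, and their levels overlapped between the ages. Sftpc had a log2 fold change of 0.06 ± 0.11 and Ager of 0.03 ± 0.08 (edgeR adjusted p = 0.931 and 0.956). Sftpd, a surfactant lectin, stood at 819, 991 and 877 CPM and then at 879, 785 and 700 CPM, at -0.18 ± 0.10, with a 95% interval from -0.41 to 0.04 (edgeR adjusted p = 0.891). Cav1, caveolin 1, was at -0.21 ± 0.10, with an interval from -0.42 to 0.01 (edgeR adjusted p = 0.891). Among the 16 endothelial genes, 2 lay apart in opposite directions (12.5%, near the 10.6% over all genes). Sox17, a transcription factor of arteries, stood at 43.8, 40.5 and 41.2 CPM and then at 48.8, 51.1 and 51.0 CPM, a log2 fold change of 0.27 ± 0.06 (edgeR adjusted p = 0.808). Aplnr, the apelin receptor, stood at 66.9, 101 and 72.3 CPM and then at 47.6, 56.3 and 60.9 CPM, a log2 fold change of -0.54 ± 0.17 (edgeR adjusted p = 0.891).

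The retinoid pathway had a median log2 fold change of 0.02 over 17 genes, with 10 above 0. Rarres1, the gene deleted in the KO mice and inducible by retinoic acid, had 47, 50 and 33 reads at 10 months and 61, 64 and 62 reads at 18 months. The ages were apart on these few reads, with a log2 fold change of 0.57 ± 0.21 (edgeR adjusted p = 0.891). Rarb, a retinoic acid receptor that retinoic acid itself induces, stood at 12.8, 12.2 and 11.6 CPM and then at 14.1, 15.8 and 13.9 CPM, a log2 fold change of 0.25 ± 0.09 without overlap (edgeR adjusted p = 0.891).

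The same ages were set side by side in Rarres1 KO lung, which shares no library with the WT comparison. This set held 3 lungs of 10 months and 5 non-tumour lungs of 18 months, all labelled male. There edgeR called 0 of 15455 genes (0%). SEs of the Y-linked Ddx3y, Kdm5d, Eif2s3y and Uty were wider in KO. They were 0.97, 0.90, 0.95 and 0.87 there, against 0.19, 0.07, 0.10 and 0.11 in WT. The sex label of single KO lungs was not tested. A difference of the age effect between the genotypes was called for 0 of 15653 genes in edgeR (0%). For that difference 453 genes had an unadjusted p under 0.05, where a share of 5% would give 783. DESeq2 called 1 gene, Gm7120. Across the 15216 genes measured in both, which are not independent replicates, the age effects correlated with Pearson's r = 0.31 and Spearman's rho = 0.17, as a description. Of the 24 genes named in WT, 14 had the same sign in KO. Of the 828 WT genes with an unadjusted p under 0.05 that were measured in KO, 512 did (61.8%), against 56.2% over all genes.

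List medians of the genotypes lay close for some groups and not for others, and no list difference was tested. KO non-tumour lungs 1, 3 and 6 of 18 months carry the same numbers as the KO tumours. Any part of tumours in the KO values was not tested. In KO the costimulation list was at 0.71 with 10 of 10 genes above 0 (0.25 in WT), T and NK cell genes were at 0.61 (0.30 in WT) and MHC class II at 0.32 (0.17 in WT). Of the lists lower in WT, smooth muscle stood at -0.05, heat shock at 0.03 and collagens at 0.03 in KO, and fibroblast genes at -0.20 with 0 of 14 above 0 (-0.17 in WT). Cholesterol synthesis was at -0.03 in KO and ribosomal proteins at -0.07. Mitosis genes stood at 0.56 with 24 of 24 above 0 in KO, against 1 of 24 in WT. For Hsph1 the KO log2 fold change was 0.71 ± 0.22 and the difference between genotypes had an unadjusted p of 0.000778, which did not pass adjustment (edgeR adjusted p = 1.00). Birc5 was at 0.88 ± 0.34 in KO, with an unadjusted p of 0.00627 for the difference (edgeR adjusted p = 1.00).

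**Figure D5:**
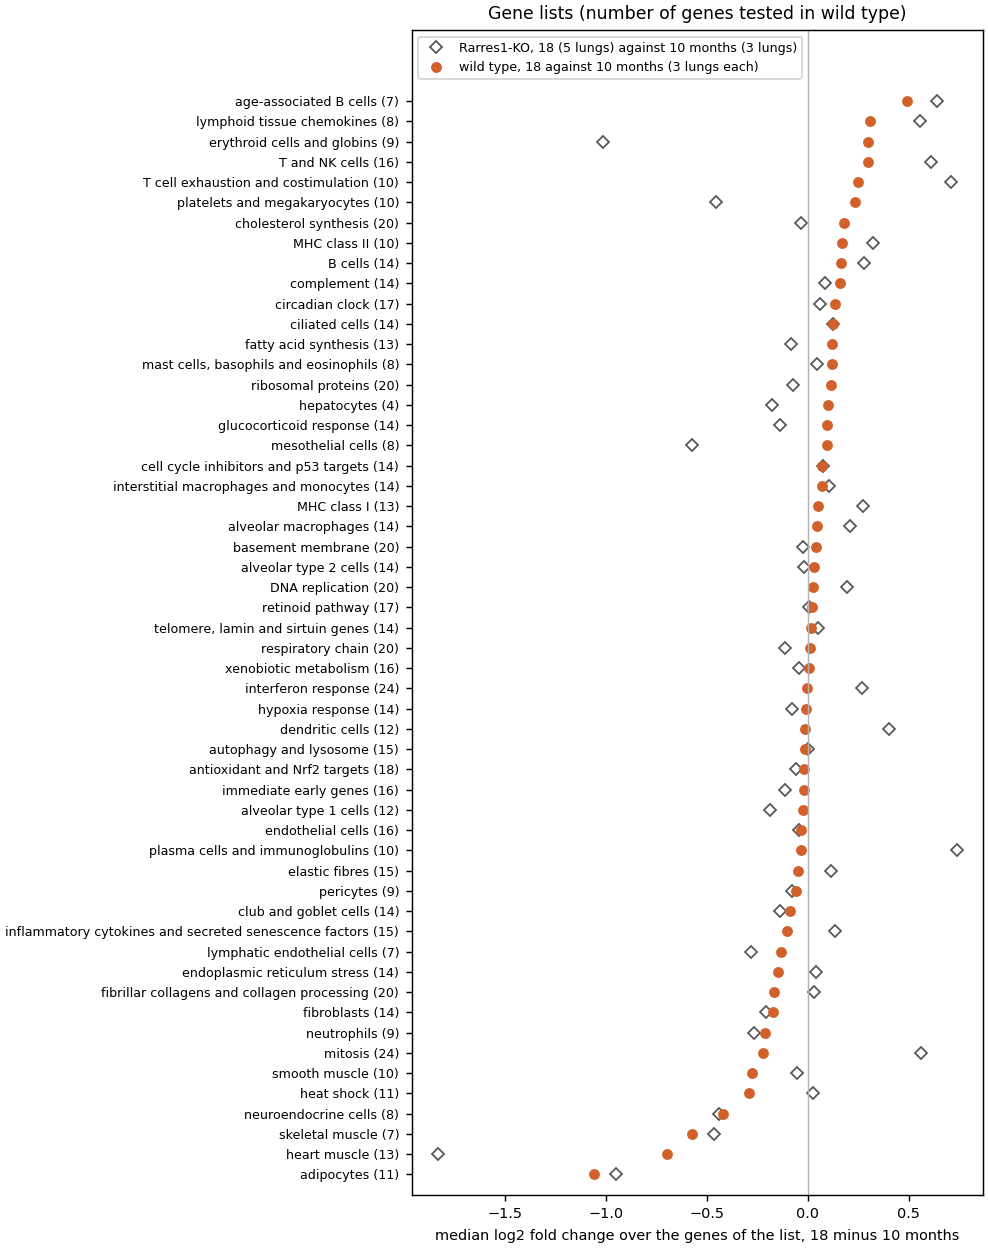
Median log2 fold change from 10 to 18 months over the genes tested of each list, in WT (orange circles, 3 lungs per age) and Rarres1 KO (open diamonds, 3 lungs of 10 months and 5 of 18 months), with the number of WT genes tested in brackets. T and B cell lists lie to the right of 0 in both genotypes, while mitosis genes lie on opposite sides (-0.22 in WT, 0.56 in KO). The WT medians of the heart muscle and adipocyte lists at the bottom change sign without lung 1 of 10 months. That of the B cell list changes sign when 1 lung of 18 months is left out.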

How the data were processed

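RNA of 6 WT lungs was analysed, with 8 KO lungs of the same ages beside them. The deposited table holds expected counts per gene, estimated by the authors with RSEM 1.3.0 after Trimmomatic 0.36 and STAR 2.5.2b on mm10, per the submitters' processing notes. The deposited FPKM table was used only for limma. Expected counts, rounded to whole numbers, went into edgeR 4.0.16 (R 4.3.3) with TMM scaling, its filter on low counts and a robust quasi-likelihood F test. P-values were adjusted by Benjamini-Hochberg over the genes tested, and a call needed an adjusted p under 0.05. SEs and 95% intervals come from that test, and CPM are TMM-scaled. Of 24411 genes, 15321 passed the filter. DESeq2 1.42.0, limma 3.58.1, other scaling, other sets of libraries and leaving out each lung were alternatives. The script was tested on simulated data.

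Named genes were up to 12 per direction by smallest p among those with at least 2 CPM and no overlap, predicted genes and pseudogenes aside, and up to 4 members by smallest p of each list described. Some genes that this rule names are not reported here. The members and lists were chosen with earlier results of these data known, so lists carry no test. Within groups, pairs of libraries differed beyond counting error (chi-square per degree of freedom 6.72 to 33.1). Coordinates are from RefSeq on GRCm38.p6.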

Additional observations from a re-analysis of the deposited data

How the results depend on the processing

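The counts of called genes are small and move with the tool and with single lungs. edgeR called 0 genes with other size factors, with no filter, over 14 adult lungs and over all 23 libraries, and limma called 0 on both scales. DESeq2 called 21 genes, 13 higher and 8 lower at 18 months. For the difference of the age effect between genotypes DESeq2 called 1 gene, with the lower age effect in KO. Leaving out 1 lung gave 0 to 10 called genes, 0 to 9 higher and 0 to 2 lower: 10 without lung 1 of 18 months, 3 without lung 1 and 2 without lung 2 of 10 months, and 0 without each of the other 3 lungs. The cause was not tested. Adjusted p over 14 alternatives ran from 3.69e-05 to 1.00 for Nrn1 and Cnn1, from 0.0429 to 1.00 for Ccl5 and from 0.0233 to 1.00 for Mmp3. For Phlda3, Cpt1a, Actg2, Hsp90aa1 and Hsph1 the DESeq2 value was the lowest and the highest was 1.00. H2-Ob, an MHC class II gene (0.19), was at -0.0088 without lung 2 of 18 months. The replicate numbers do not pair the lungs: deviations of same-numbered lungs correlated at -0.07, -0.11 and -0.02, and 0 lungs correlated best with their own number. A replicate block gave 1 called gene, Nrn1, 1 higher and 0 lower.

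Many list medians changed sign without 1 lung. Without lung 1 of 10 months those of heart muscle (-0.70 to 0.40), adipocytes (-1.06 to 0.23), skeletal muscle (-0.57 to 0.01), club and goblet cells (-0.08 to 0.14) and secreted senescence factors (-0.10 to 0.01) did. Others were neutrophils (-0.21 to 0.35, without lung 3 of 10 months), B cells (0.17 to -0.06, without lung 2 of 18 months), and erythroid (0.30 to -0.24) and glucocorticoid response genes (0.10 to -0.31), both without lung 1 of 18 months, besides lists nearer 0. Of the genes above, leaving out lung 3 of 18 months took Nkg7 to 0.33, Mvd to 0.17, Cdk1 to -0.26, Sftpd to -0.11 and Jchain to -0.23, and leaving out lung 2 of 18 months took Il2rb to 0.31 and Jchain to -0.93. Without lung 2 of 10 months Ifi44 was at -0.33, Aplnr at -0.34 and Sftpd at -0.11, and without lung 3 of 10 months Rps18 and Cav1 were at 0.13 and -0.13.

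With 3 lungs per age, differences of the typical size seen were no larger than the median SE of 0.09.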

Other observations

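Other gene groups were described by list, with members named after their values were seen and none past the test over all 6 lungs. Genes of fatty acid synthesis had 9 of 13 members above 0 with a median log2 fold change of 0.12. Among them the desaturases Fads1 (0.15 ± 0.06), Fads2 (0.19 ± 0.08) and Scd1 (0.27 ± 0.11) had an unadjusted p under 0.05 (2.92% over all genes on the higher side). Pericyte genes had a median of -0.06, with 3 of 9 above 0 and the highest at 0.45. An unadjusted p under 0.05 was reached by 3 of them on the lower side (2.51% over all genes) and 1 on the higher side (2.92%). Postn, periostin, a matrix protein, stood at 339, 309 and 332 CPM and then at 275, 234 and 284 CPM. It was lower in each older lung (-0.31 ± 0.08, edgeR adjusted p = 0.84). Basement membrane genes had a median of 0.04 and overlapping levels, and 3 of 20 genes lay apart (15%, against 10.6% over all genes). The laminin chain Lama5 (0.19 ± 0.06) and agrin, Agrn (0.19 ± 0.07), were higher in each older lung and the nidogen Nid2 (-0.34 ± 0.14) was lower in each. Genes of endoplasmic reticulum stress, chaperones among them, were on the lower side, with 3 of 14 above 0 and a median of -0.15. An unadjusted p under 0.05 was reached by 2 of them on the lower side (2.51% over all genes). Their levels overlapped between the ages, and 0 of 14 genes lay apart (10.6% over all genes). Hsp90b1 stood at 767, 954 and 933 CPM and then at 792, 645 and 625 CPM, with lung 1 of 18 months again the highest of the older lungs (-0.36 ± 0.11, edgeR adjusted p = 0.891). Macrophage lists had medians of 0.05 (alveolar) and 0.07 (interstitial and monocytes). In the second list 5 of 14 genes were below 0. It had 1 gene at an unadjusted p under 0.05 on the higher side (2.92% over all genes) and 1 on the lower side (2.51%). Ly6c2, a monocyte marker, was higher in each older lung at 0.62 ± 0.18 (edgeR adjusted p = 0.89) and was called without lung 1 of 18 months.

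Cxcr3, a chemokine receptor of activated T and B cells, stood at 3.44, 3.40 and 2.61 CPM and then at 3.84, 5.03 and 6.26 CPM (0.68 ± 0.21, edgeR adjusted p = 0.866). The liver plasma protein Fgg stood at 0.944, 1.23 and 1.04 CPM and then at 0.449, 0.470 and 0.598 CPM (-1.08 ± 0.28, edgeR adjusted p = 0.84). Fgg was the only gene below 0 of the hepatocyte list, where 3 of 4 genes tested were above 0 with a median of 0.10. Dlk1, an imprinted growth regulator, had 56, 75 and 1798 reads at 10 months and 22, 0 and 1 at 18 months. H19, another imprinted RNA, had 66, 71 and 935 reads and then 46, 21 and 16. Alox15, a lipoxygenase of eosinophils and macrophages, had 1410 reads in lung 1 of 18 months and 26 to 64 in the other 5 lungs, and Prg4, lubricin, had 1179 against 13 to 35.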
